A study of Mus musculus with 4 samples.

Results

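Neurotrophins are secreted growth factors that neurons use to support the survival, growth and synaptic strength of other neurons. The genes described here are 7 of the 31053 genes counted in every library: the ligands Bdnf, Ntf3 (neurotrophin-3) and Ntf5 (neurotrophin-4/5), and the receptors Ntrk2 (TrkB), Ntrk3 (TrkC), Ngfr (p75) and Sort1 (sortilin). They were chosen by name as the neurotrophins and receptors that the study's question on brain-derived neurotrophic factor (BDNF) signaling turns on, and all 7 were found in the files. Single-nucleus RNA-seq counted their transcripts as unique molecular identifiers (UMIs), each standing for 1 captured RNA molecule.

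The nuclei came from pooled brain tissue of male C57BL/6J mice. The mice had received an adeno-associated virus of serotype 9 (AAV) at 4 wk of age, injected into the fluid of the cisterna magna behind the cerebellum, and were taken at 8 weeks. AAV-VEGF-C delivered the full-length form of the mouse growth factor VEGF-C (vascular endothelial growth factor C), and AAV-CTRL delivered a soluble fragment of VEGF receptor 3 with an immunoglobulin tail that does not bind VEGF-C, so that both groups carried a virus and a secreted protein. Tissue labeled cortex or striatum was pooled from 5 mice per AAV group, which gave 4 groups of 1 library each, and the same mice fed both region labels of an AAV group. No mouse had a stroke. The comparison asks whether VEGF-C changed the RNA of the neurotrophin system in the uninjured brain.

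With 1 library per group there was no replicate, so no test was run and each difference describes a pair of libraries, not the treatment. Where 4 values are given, the cortex label comes first and the striatum label second, each with AAV-CTRL before AAV-VEGF-C. The libraries held 17168, 20370, 23724 and 17466 nuclei as deposited, and 72924 of 78728 nuclei were kept after called doublets were left out. The kept nuclei carried 57651187 to 69533022 UMIs per library, with medians of 2129 to 2641.5 UMIs per nucleus. Levels are UMIs per 1000000 UMIs (CPM) of the nuclei named. Parentheses after a level, share or ratio hold its 95% interval, which covers counting error only and leaves out any spread between animals or preparations. Any pair of libraries shared 76 to 118 cell barcodes, at most 0.658% of a library. Vegfc itself read 12.3, 11.7, 13.1 and 11.9 CPM over all kept nuclei, so its counts did not separate the AAV labels. Whether these counts include RNA made from the virus is not given in the sources used here. The paper reports more VEGF-C protein in the cerebrospinal fluid and brain after AAV-VEGF-C, and more Vegfc RNA in smooth muscle cells.

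The region labels did not hold as written. Over all kept nuclei, 6 markers of striatal projection neurons summed to 1942 and 1961 CPM in the cortex-labeled libraries but to 969 and 964 CPM in the striatum-labeled libraries. The 7 markers of cortical excitatory neurons summed to 1904, 1953, 509 and 424 CPM, and 7 markers of thalamic glutamatergic neurons to 1755, 1742, 3406 and 3609 CPM. The striatum-labeled libraries therefore held many thalamic and other subcortical neurons, also habenular, cerebellar and olfactory cells, and the cortex-labeled libraries held the larger part of the striatal and hippocampal neurons. Region labels are kept below as names of libraries only. Nuclei were clustered with the 7 genes left out, and clusters were named from fixed markers into 43 classes, each to be read as "-like", since the names rest on these markers and not on the authors' cell types (labels in the plots leave the suffix out). Of the kept nuclei, 916, 1088, 5616 and 4669 were neurons that matched no finer class and are called unresolved.

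As background, neurotrophins are made as precursors, cut by proprotein convertases, and bind Trk receptor kinases on the receiving cell: BDNF and neurotrophin-4/5 bind TrkB, and neurotrophin-3 binds TrkC. p75 binds every neurotrophin and, with sortilin, binds the uncut precursors, while sortilin inside the cell also steers proBDNF into vesicles. In the forebrain, BDNF is known as a product of excitatory neurons, with activity-dependent transcription, and astrocytes are known for truncated TrkB that lacks the kinase. These 3′ counts cannot tell the alternative starts of Bdnf or the full-length and truncated forms of Ntrk2 apart. On mouse build mm10, Bdnf (ENSMUSG00000048482) lies on the plus strand at chr2:109674700-109727007 with 11 annotated transcripts. Ntf3 (ENSMUSG00000049107) lies on the minus strand at chr6:126101412-126166910 and Ntf5 (ENSMUSG00000074121) on the plus strand at chr7:45413695-45417179. Ntrk2 (ENSMUSG00000055254) spans chr13:58806569-59133970 on the plus strand with 10 transcripts, and Ntrk3 (ENSMUSG00000059146) spans chr7:78175959-78738012 on the minus strand with 20. Ngfr (ENSMUSG00000000120) lies at chr11:95568818-95587735 on the minus strand, and Sort1 (ENSMUSG00000068747) at chr3:108284082-108361511 on the plus strand.

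Among classes with more than 111 nuclei, Bdnf, the ligand of TrkB, was highest in claustrum-like excitatory neurons, dentate granule-like neurons and superficial cortical excitatory-like neurons. The limit leaves out subcortical glutamatergic-like nuclei, which read 105 CPM in the striatum AAV-CTRL library and are described below. Over all 4 libraries Bdnf read 157 CPM (137 to 179) in 218 claustrum-like nuclei, a small deep-cortical type found here in the cortex-labeled libraries alone, at 195 and 131 CPM. Dentate granule-like neurons, the input cells of the hippocampus, read 105, 99.4, 76.3 and 103 CPM. Layer 2/3 excitatory-like neurons read 86.5 and 72.4 CPM in the cortex-labeled libraries, where nearly all of them lay. These 3 classes stood above the level of 36.7 CPM over all kept nuclei in each library that held at least 50 of their nuclei.

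The remaining cortical excitatory nuclei and CA1 ranged from high to low Bdnf. The other cortical excitatory-like class, nuclei of that type with no layer name, read 75.6 CPM on 567 UMIs and 68.9 CPM on 598 UMIs in the cortex-labeled libraries, close to layer 2/3-like neurons, and 97.8 and 16.9 CPM on 37 and 2 UMIs in the striatum-labeled ones. Layer 5 Fezf2-like neurons read 51.4 CPM in both cortex-labeled libraries, and layer 4/5 Rorb-like neurons 44.5 and 43.9 CPM. Layer 6 Foxp2-like neurons, which project to the thalamus, read 22.8 and 18.8 CPM, and layer 6b-like neurons read 13.3 CPM over all libraries. CA1-like pyramidal neurons of the hippocampus read 66.7 and 54.4 CPM. The claustrum-like and layer 6b-like classes, both deep, were thus at opposite ends of the cortical excitatory range.

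Bdnf levels were low in inhibitory neurons. Striatal projection-like neurons, which receive BDNF from cortical axons, read 13.5 CPM (D1-like) and 14.7 CPM (D2-like). The Pvalb-, Sst-, Vip- and Lamp5/Ndnf-like interneurons read 11.1 to 19.2 CPM, and cholinergic-like neurons 8.25 CPM. Subcortical GABAergic-like neurons read 20.6 and 19.3 CPM in the striatum-labeled libraries, on 167 and 139 UMIs. Below the cortex, 111 nuclei of 1 subcortical glutamatergic-like cluster, with Sim1 and Foxb1 among its leading genes, read 105 CPM (78.6 to 138) but 54.2 CPM when each library was clustered on its own. A thalamic-like cluster of 148 nuclei read 86.7 CPM, while the thalamic-like class as a whole read 30.0 CPM.

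Glia and immune cells also carried Bdnf UMIs. Microglia-like nuclei read 43.2, 50.6, 28.9 and 20.3 CPM, and mature oligodendrocyte-like nuclei 37.2, 34.9, 16.8 and 16.6 CPM, so both were higher under the cortex labels. The 7 cortical excitatory markers moved the same way in both: they summed to 1334, 1249, 220 and 168 CPM in microglia-like nuclei and to 1121, 1132, 172 and 144 CPM in oligodendrocyte-like nuclei, with every marker present except 1 in microglia-like nuclei of the last library. In the cortex AAV-CTRL library, glial, immune and vascular classes other than astrocytes and ependymal cells held 27.9 to 44.4 Bdnf UMIs per 1000 UMIs of those markers. The cortical excitatory classes held 4.12 to 66.7, with a median of 17.2. Their highest value was that of claustrum-like neurons, and layer 2/3-like neurons came next at 35.8. Endothelial-like and pericyte-like nuclei lay between these, at 40.2 and 44.4. In the cortex AAV-VEGF-C library the ratio was 24.1 to 30.8 in the oligodendrocyte lineage and 37.2 to 46.8 in immune, vascular and choroid plexus classes. The cortical excitatory classes there held 4.42 to 45.1. In the striatum AAV-CTRL library the same ratio was 97.2 in mature oligodendrocyte-like nuclei and 79.6 to 131 in immune and vascular classes, above the 44.6 of the 1 cortical excitatory class with enough UMIs there, while it was 31.1 on 25 Bdnf UMIs in oligodendrocyte precursor-like nuclei, below that class. The part of RNA from neurons in these glial values was not tested.

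After each nucleus was thinned to 1000 UMIs, the share of nuclei with a Bdnf UMI was compared with microglia-like and mature oligodendrocyte-like nuclei as background. The share was 17.2% (9.98 to 26.8) and 9.92% (5.39 to 16.4) in claustrum-like neurons and 11.1%, 10.6%, 7.21% and 9.23% in dentate granule-like neurons. It was 4.70%, 4.77%, 3.36% and 2.39% in microglia-like nuclei and 3.21%, 3.81%, 1.88% and 1.74% in oligodendrocyte-like nuclei. Unthinned shares were 49.4% and 41.2% in claustrum-like neurons against 6.31% and 6.57% in microglia-like nuclei, at median depths of 6431 and 6174 against 1458 and 1454.5 UMIs. Of the classes with at least 50 nuclei, the intervals lay above both background classes for claustrum-like and dentate granule-like neurons in the cortex AAV-CTRL library, for dentate granule-like neurons in both AAV-VEGF-C libraries, and for no class in the striatum AAV-CTRL library. Layer 2/3-like neurons thus cleared both background classes in no library. In the 4 libraries 24 of 31, 21 of 30, 23 of 29 and 17 of 24 classes were at or below the higher of the background shares. Bdnf in those classes was not detectable over background at this depth.

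**Figure D1:**
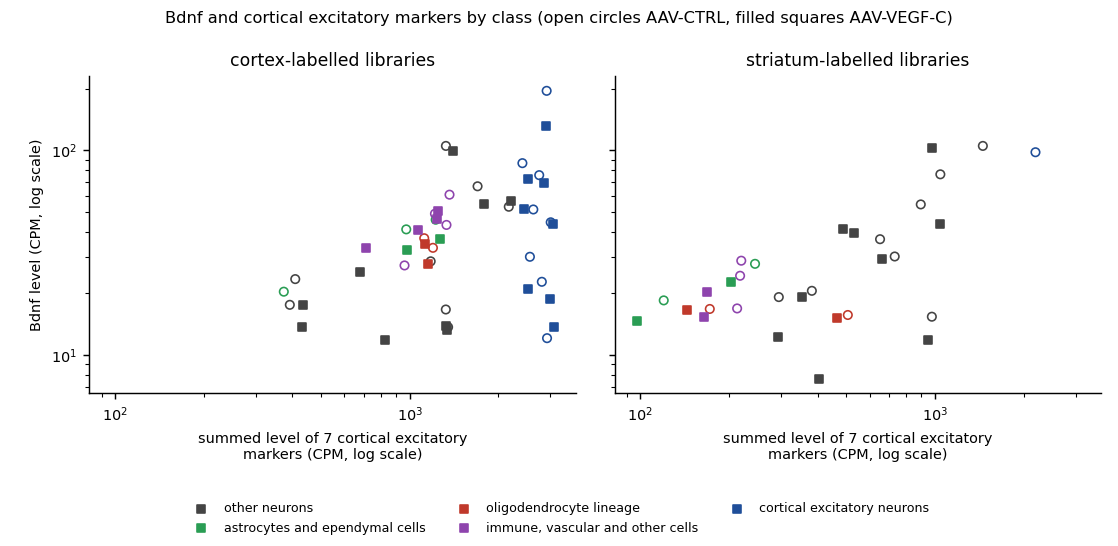
Level of Bdnf (CPM, y axis) against the summed level of 7 cortical excitatory markers (CPM, x axis) in each class and library with at least 10 Bdnf UMIs, both axes logarithmic. Glial, immune and vascular classes lie lower on both axes in the striatum-labeled libraries (oligodendrocyte-like nuclei at 16.8 and 16.6 CPM of Bdnf) than in the cortex-labeled ones (37.2 and 34.9 CPM), and claustrum-like neurons lie highest at 195 CPM.

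Ntf3, the ligand of TrkC, had its highest levels in dentate granule-like and dopaminergic-like neurons. Dentate granule-like neurons read 63.1, 59.6, 65.4 and 96.4 CPM and held 376 of all 1320 Ntf3 UMIs, that is 28.5% of the transcripts. Over the hippocampal classes together the share was 28.9% of Ntf3 UMIs against 3.76% of all UMIs. Dopaminergic-like neurons of the midbrain, defined by Th and Slc6a3, read 49.9 and 67.8 CPM in the striatum-labeled libraries on 17 and 36 UMIs. The level over all kept nuclei was 5.17 CPM, far below both classes.

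Smaller sources of Ntf3 were also neurons. Olfactory sensory-like neurons read 34.7 CPM (20.9 to 54.2) and an inhibitory-like cluster with Ano1 and Trpc4 among its leading genes read 29.8 CPM (23.3 to 37.4). An unresolved cluster of 487 neurons read 27.9 CPM (22.6 to 34.1), and another of 382 neurons, led by Ccbe1, read 24.5 CPM (19.0 to 31.0). That last cluster also read 83.4 CPM of Bdnf. Few Ntf3 UMIs lay in microglia and astroglia: microglia-like nuclei held 0, 0, 2 and 0 UMIs, and astrocyte and ependymal classes together held 1.44% of Ntf3 UMIs. After thinning, 7.39%, 4.08%, 4.95% and 6.92% of dentate granule-like nuclei had an Ntf3 UMI against at most 0.517% of microglia-like nuclei. Unthinned shares in the dentate granule-like class were 22.2%, 19.8%, 21.2% and 31.5%.

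Ntf5, the second ligand of TrkB, gave 17, 12, 14 and 5 UMIs, 48 in all. The class with the highest level, choroid plexus epithelial-like cells, read 3.23 CPM on 4 UMIs. Since no class reached 50 UMIs, no ratio is given for Ntf5. Microglia-, endothelial- and non-telencephalic astrocyte-like nuclei held none.

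**Figure D2:**
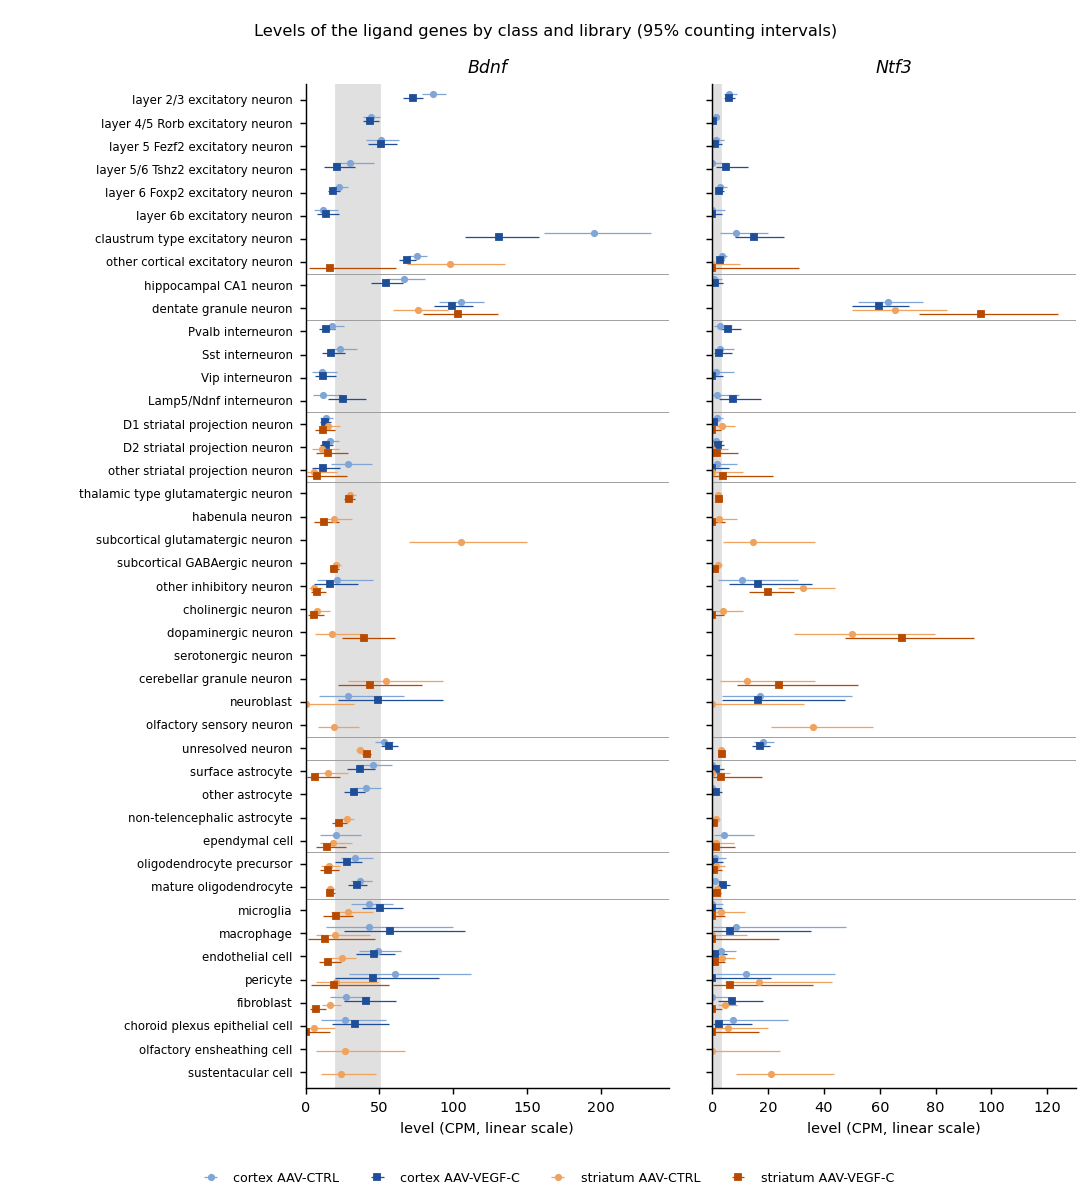
Levels of Bdnf and Ntf3 (CPM, x axis) by class (y axis), with 1 point per library and the grey band marking the range of microglia-like nuclei over the libraries. Bdnf is spread over many excitatory classes with claustrum-like neurons at 195 and 131 CPM, while Ntf3 stands out in dentate granule-like (59.6 to 96.4 CPM) and dopaminergic-like neurons (49.9 and 67.8 CPM).

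Ntrk2, the receptor of BDNF, was found at high levels in both astroglia and neurons. Ependymal-like cells, which line the ventricles, read 1579, 1623, 1315 and 1925 CPM. Surface astrocyte-like nuclei, marked by Myoc and Gfap, read 1271, 1187, 1396 and 1277 CPM, and non-telencephalic astrocyte-like nuclei read 1121 and 1057 CPM in the striatum-labeled libraries. Astrocytes and ependymal cells together held 13.6% of Ntrk2 UMIs and 7.77% of all UMIs, so they were over-represented among Ntrk2 UMIs. How much of this RNA encodes the form with the kinase cannot be told from these counts.

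Among neurons, Lamp5/Ndnf-like interneurons of the upper cortex had the highest Ntrk2, at 1525 and 1427 CPM in the cortex-labeled libraries. Layer 4/5 Rorb-like neurons followed at 1221 and 1128 CPM, then Vip-like interneurons at 1073 and 943 CPM, layer 2/3-like neurons at 1013 and 942 CPM and Pvalb-like interneurons at 982 and 948 CPM. Claustrum-like and dentate granule-like neurons, which had the highest Bdnf among classes with more than 111 nuclei, read 671 and 355 CPM of Ntrk2. The class levels of Bdnf and Ntrk2 did not follow each other, with Pearson r = -0.06 on log2(CPM + 1) over 42 classes, a description over classes that share libraries and depth.

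Ntrk2 was low in mature oligodendrocytes, microglia and the olfactory epithelium. Mature oligodendrocyte-like nuclei read 189 CPM, sustentacular-like cells 165 CPM and microglia-like nuclei 238 CPM, whereas oligodendrocyte precursor-like nuclei read 545 CPM. After thinning, 43.8%, 40.8%, 43.8% and 40.5% of precursor-like nuclei had an Ntrk2 UMI, against 24.2%, 18.7%, 14.6% and 15.7% of mature oligodendrocyte-like and 25.3%, 23.0%, 16.3% and 15.6% of microglia-like nuclei. The unthinned shares in the precursor-like class were 69.6%, 64.8%, 70.6% and 72.6%. Of the classes with at least 50 nuclei, 22 of 31, 24 of 30, 18 of 29 and 16 of 24 had a share of nuclei with an Ntrk2 UMI above both background classes beyond the intervals.

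Ntrk3, the receptor of neurotrophin-3, was highest in hippocampal and superficial cortical neurons, Pvalb-like interneurons and striatal projection neurons. Dentate granule-like neurons read 1105, 1148, 1158 and 1061 CPM, the same class that led in Ntf3. Layer 2/3-like neurons read 1148 and 1017 CPM in the cortex-labeled libraries, CA1-like neurons 991 and 903 CPM, and Pvalb-like interneurons 921 and 993 CPM. D1-like striatal projection neurons read 968, 919, 884 and 817 CPM, and D2-like ones 864, 832, 756 and 754 CPM. Striatal projection-like neurons as a group held 12.5% of Ntrk3 UMIs and 7.04% of all UMIs.

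The order of the cortical classes differed between the Trk receptors. Layer 4/5 Rorb-like neurons, near the top for Ntrk2, read 323 CPM of Ntrk3, and Lamp5/Ndnf-like interneurons read 281 CPM. Layer 5/6 Tshz2-like neurons read 114 CPM and thalamic-like neurons 190 CPM, while layer 5 Fezf2-like neurons read 781 CPM. In the oligodendrocyte lineage, precursor-like nuclei read 558 CPM against 99.6 CPM in mature oligodendrocyte-like nuclei. Surface astrocyte-like and ependymal-like nuclei, high in Ntrk2, read 182 and 104 CPM of Ntrk3. After thinning, 58.7%, 64.9%, 65.3% and 59.2% of dentate granule-like nuclei had an Ntrk3 UMI (93.0%, 92.9%, 92.3% and 93.8% unthinned), against 14.3%, 15.1%, 10.9% and 7.81% of microglia-like nuclei.

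Ngfr, the p75 receptor, was sparse, with 71, 101, 286 and 324 UMIs. Cholinergic-like neurons, defined by Chat and Slc5a7, read 33.6 and 52.0 CPM in the striatum-labeled libraries and held 83 UMIs, or 10.6% of the total, in 343 nuclei. Olfactory ensheathing-like glia read 30.6 CPM on 7 UMIs, and fibroblast-like cells 8.21 CPM. Mature oligodendrocyte-like nuclei read 2.66, 3.12, 7.60 and 6.20 CPM. After thinning, the share of nuclei with an Ngfr UMI exceeded both background classes beyond the intervals in 1 case, cholinergic-like neurons of the striatum AAV-VEGF-C library, at 4.62% (1.71 to 9.78) and 13.1% unthinned.

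Sort1 varied less between classes than the Trk receptors, with levels from 74.8 to 311 CPM where Ntrk2 ran from 165 to 1608 CPM and Ntrk3 from 65.9 to 1126 CPM. It was highest in mature oligodendrocyte-like nuclei, at 353, 337, 299 and 290 CPM. Surface astrocyte-like nuclei read 272, 260, 144 and 147 CPM, CA1-like neurons 269 and 310 CPM in the cortex-labeled libraries, and microglia-like nuclei 279, 250, 196 and 180 CPM. The lowest class was the oligodendrocyte precursor-like one, at 108, 106, 44.1 and 53.4 CPM. Precursor-like and mature oligodendrocyte-like nuclei thus stood at opposite ends for Sort1 and, in the reverse order, far apart for Ntrk3. Because the mature class was the highest, it could not serve as background for Sort1 shares.

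Few neighbors in the order of the classes were separated beyond their spread. The spread of a class took in its range over libraries with at least 50 nuclei and the counting interval of its pooled level. Between neighbors in the order of levels, these spreads overlapped for all 42 pairs for Bdnf, Ntf3, Ntf5, Ngfr and Sort1. For sparse genes such as Ntf5 the intervals are wide, so overlap there does not show a gradual order. For Ntrk2, 39 of 42 overlapped, and the steps without overlap were from Lamp5/Ndnf-like to surface astrocyte-like, from layer 4/5 Rorb-like to non-telencephalic astrocyte-like, and from Sst-like to other cortical excitatory-like nuclei. For Ntrk3, 40 of 42 overlapped, and the steps lay below layer 2/3-like and below dopaminergic-like neurons.

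**Figure D3:**
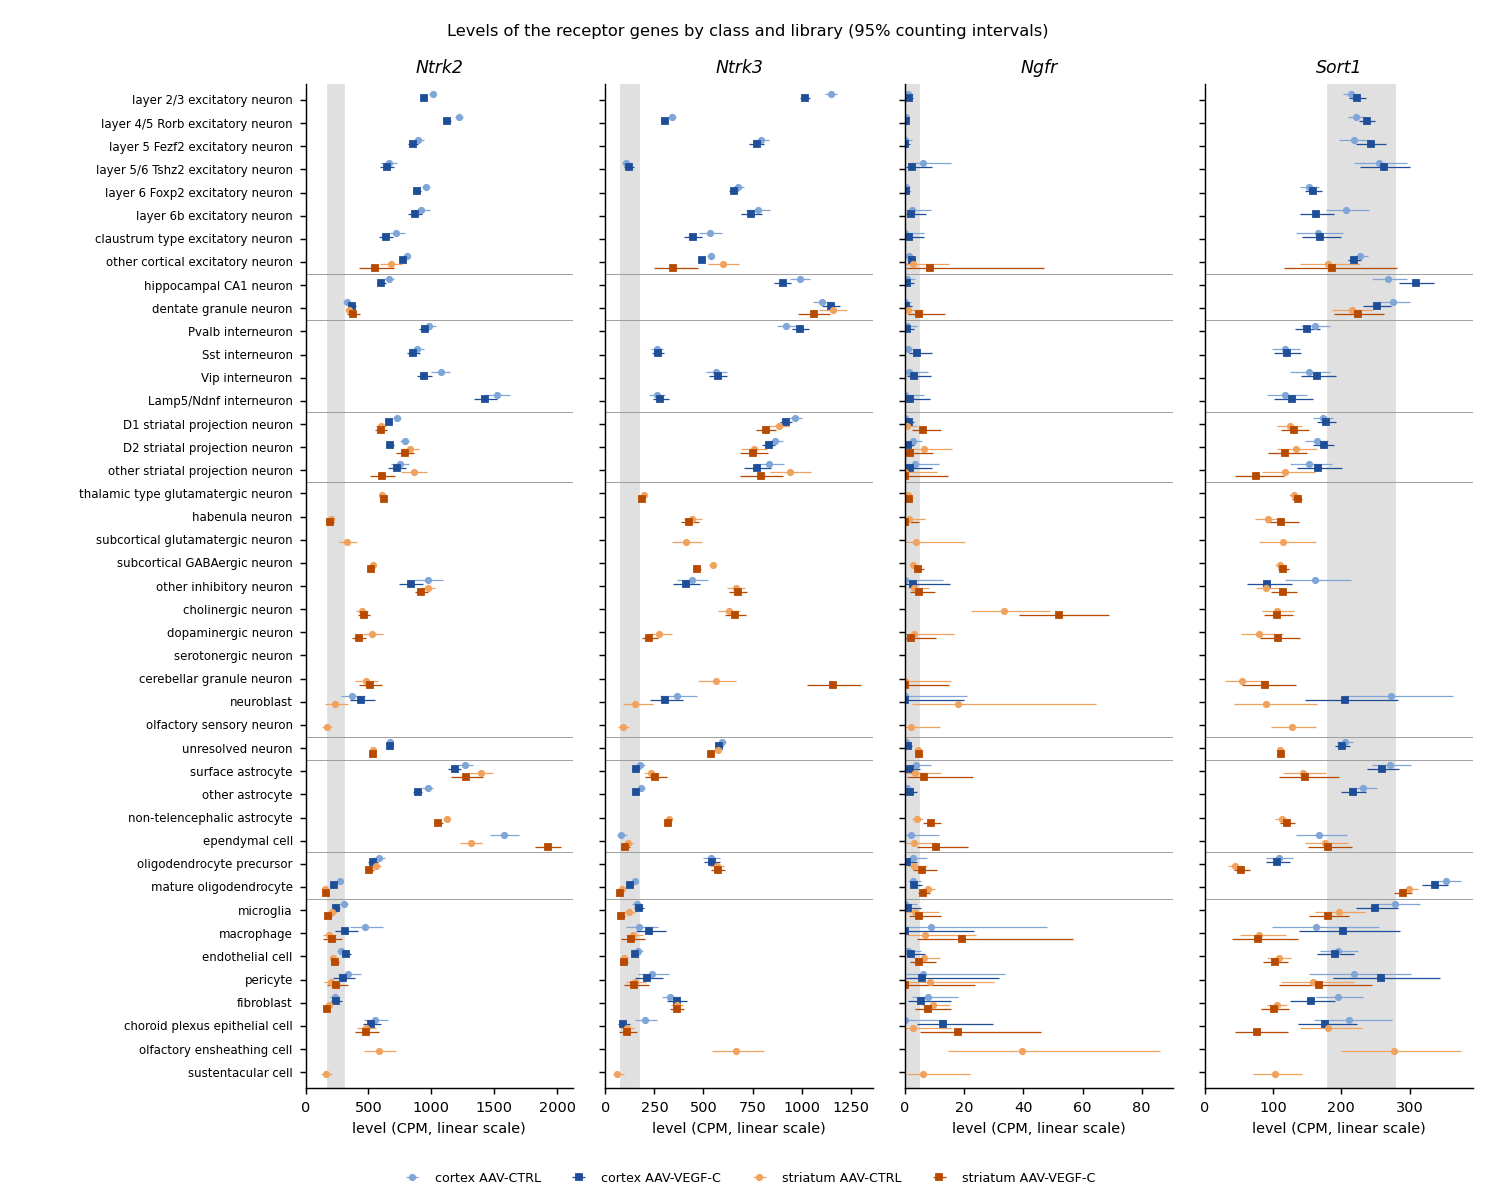
Levels of Ntrk2, Ntrk3, Ngfr and Sort1 (CPM, x axis) by class (y axis), with 1 point per library and the grey band marking the range of microglia-like nuclei over the libraries. Astroglial classes stand high for Ntrk2 (surface astrocyte-like nuclei at 1187 to 1396 CPM) but not for Ntrk3, cholinergic-like neurons lead for Ngfr (33.6 and 52.0 CPM), and mature oligodendrocyte-like nuclei lead for Sort1 (290 to 353 CPM).

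The cells that supplied each transcript differed between the library labels. Cortical excitatory-like neurons held 55.8% and 53.6% of Bdnf UMIs in the cortex-labeled libraries, and 4.23% and 0.767% in the striatum-labeled ones, where unresolved neurons held 38.9% and 45.0%. For Ntrk2, astrocytes and ependymal cells held 10.0%, 9.63%, 19.8% and 17.9% of UMIs. For Sort1, the oligodendrocyte lineage held 9.82%, 9.18%, 22.4% and 24.4%. The makeup of the libraries by cell type was thus part of each whole-library level.

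**Figure D4:**
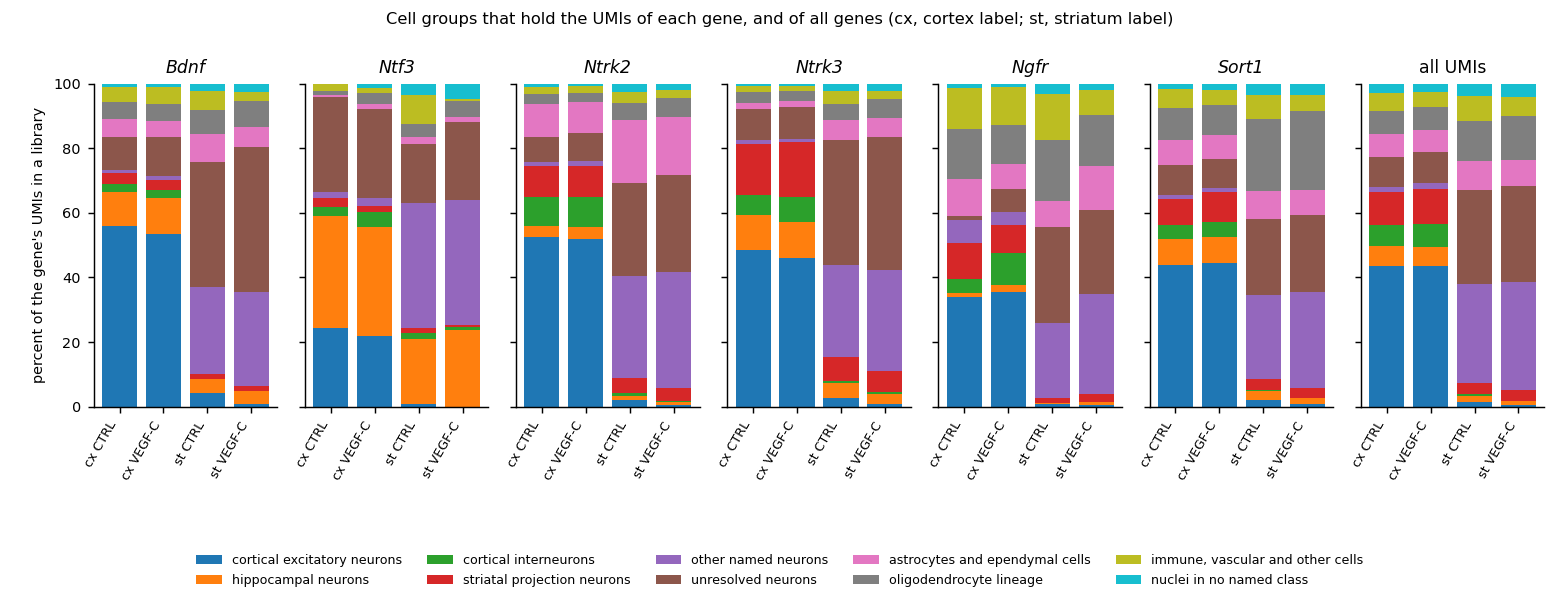
Percent of the UMIs of each gene (y axis) that came from each group of classes, in stacked bars by library, beside the same for all UMIs. Hippocampal neurons take 28.9% of Ntf3 UMIs over all libraries against 3.76% of all UMIs, and the oligodendrocyte lineage takes 22.4% and 24.4% of Sort1 UMIs in the striatum-labeled libraries.

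Between the AAV labels, the whole-library levels of the 7 genes were close. With the cortex label, Bdnf read 48.6 CPM in AAV-CTRL and 44.2 CPM in AAV-VEGF-C, a log2 ratio of -0.14 (-0.21 to -0.06), so Bdnf RNA was not higher in the VEGF-C library. With the striatum label it read 27.5 and 27.4 CPM, a log2 ratio of -0.01 (-0.10 to 0.09). In such sums, fewer cells of a type and less RNA per cell cannot be told apart, and holding the class shares equal within each pair gave -0.13 and -0.00. Ntf3 differed by 0.03 (-0.18 to 0.24) and -0.15 (-0.40 to 0.09) with the cortex and the striatum label.

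The receptors were as close. Ntrk2 read 799 and 754 CPM with the cortex label and 544 and 532 CPM with the striatum label, log2 ratios of -0.08 (-0.10 to -0.07) and -0.03 (-0.06 to -0.01). Ntrk3 read 589 and 563 CPM, then 430 and 391 CPM, log2 ratios of -0.07 (-0.09 to -0.04) and -0.14 (-0.16 to -0.12). Ngfr read 1.23 and 1.45 CPM, then 4.31 and 5.23 CPM, log2 ratios of 0.24 (-0.21 to 0.70) and 0.28 (0.04 to 0.51). Sort1 read 210 CPM in both cortex-labeled libraries and 135 and 138 CPM in the striatum-labeled ones. None of the 6 genes with at least 50 UMIs reached 1.5-fold under either label, where 2.46% (cortex) and 4.47% (striatum) of all genes with at least 50 UMIs did.

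Within classes, Bdnf in the VEGF-C library was level with or below the control in most classes tested with the cortex label. With that label, 18 classes had enough UMIs, of which 15 had a log2 ratio below 0, with a median of -0.20 and a range of -0.57 to 0.23. They held cortical, hippocampal and striatal neurons, glia and endothelial-like cells, and all came from the same pair of libraries, so they are not separate observations. The largest difference was in claustrum-like neurons, at 195 CPM in AAV-CTRL and 131 CPM in AAV-VEGF-C, a log2 ratio of -0.57 (-0.96 to -0.18) on 114 and 113 UMIs from 87 and 131 nuclei. It passed 1.5-fold under 3 of the alternative settings, at -0.60 with median of ratios scaling, -0.76 after thinning and -0.60 with called doublets kept. Of all genes in claustrum-like neurons with at least 50 UMIs, 9.49% were past 1.5-fold. Layer 2/3-like neurons differed by -0.26 (-0.45 to -0.06), at 86.5 and 72.4 CPM. Layer 5 Fezf2-like and layer 4/5 Rorb-like neurons had ratios of -0.00 (-0.42 to 0.43) and -0.02 (-0.28 to 0.24). With the striatum label, 7 classes had a median of -0.03, and unresolved neurons went the other way, at 36.8 and 41.3 CPM, a log2 ratio of 0.17 (0.02 to 0.32).

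Bdnf in dentate granule-like neurons differed by -0.08 (-0.36 to 0.21) with the cortex label and by 0.43 (-0.08 to 0.93) with the striatum label. Ntf3 in the same neurons read 63.1 and 59.6 CPM, then 65.4 and 96.4 CPM, log2 ratios of -0.08 (-0.45 to 0.29) and 0.56 (0.02 to 1.09). The last rests on 60 and 62 UMIs from 222 and 130 nuclei. In dopaminergic-like neurons Ntf3 differed by 0.44 (-0.43 to 1.37). Neither ligand was past 1.5-fold in these neurons, except that Ntf3 in dentate granule-like neurons reached 0.67 with each library clustered on its own.

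For Ntrk2, 26 of 30 classes with the cortex label had a ratio below 0, with a median of -0.10, and 13 of 24 with the striatum label, with a median of -0.02. Layer 4/5 Rorb-like neurons read 1221 and 1128 CPM, a log2 ratio of -0.11 (-0.16 to -0.07), and D2-like striatal neurons 787 and 672 CPM, -0.23 (-0.32 to -0.13). Astrocytes moved little: the ratio was -0.10 (-0.19 to -0.01) in surface astrocyte-like nuclei with the cortex label and -0.09 (-0.14 to -0.03) in non-telencephalic astrocyte-like nuclei with the striatum label. With the cortex label the class ratios ran from -0.58 to 0.27, and with the striatum label from -0.50 to 0.55. The highest was in ependymal-like cells with the striatum label, at 1315 CPM in AAV-CTRL and 1925 CPM in AAV-VEGF-C, 0.55 (0.43 to 0.67). It came from 179 and 97 nuclei, with median depths of 2425 and 3231 UMIs. In ependymal-like cells with that label 9.16% of genes were past 1.5-fold, and Ntrk2 itself was past it in no class.

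For Ntrk3, 20 of 30 classes with the cortex label and 17 of 24 with the striatum label had a ratio below 0, both with a median of -0.07. Layer 2/3-like neurons read 1148 and 1017 CPM, a log2 ratio of -0.18 (-0.23 to -0.12), and subcortical GABAergic-like neurons 546 and 468 CPM, -0.22 (-0.29 to -0.16). Pvalb-like interneurons read 921 and 993 CPM, 0.11 (0.01 to 0.21). Sort1 was balanced with the cortex label, with 15 of 30 classes above 0 and a median of 0.00. CA1-like neurons with that label read 269 and 310 CPM, 0.20 (0.02 to 0.38). With the striatum label 15 of 22 classes were above 0 and 7 below, with a median of 0.04.

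Past 1.5-fold were 2 of 112 gene and class pairs with the cortex label, where 5.54% of all gene and class pairs were, and 10 of 86 with the striatum label, where 7.23% were. The 2 with the cortex label were lower in AAV-VEGF-C, where 3.22% of all pairs were higher and 2.32% lower past the fold. With the striatum label 4 were higher and 6 lower, where 3.77% of all pairs were higher and 3.46% lower. The best counted was Ntrk3 in cerebellar granule-like neurons with the striatum label, at 565 CPM on 135 UMIs in AAV-CTRL and 1158 CPM on 290 UMIs in AAV-VEGF-C, a log2 ratio of 1.04 (0.74 to 1.34). The nuclei numbered 143 and 123, with median depths of 1557 and 1888 UMIs, and the share with an Ntrk3 UMI after thinning was 41.1% (32.9 to 49.7) and 61.5% (52.2 to 70.1). In this class 13.3% of genes were past 1.5-fold. Markers of other cells differed between the same nuclei: the 6 striatal projection neuron markers, a type high in Ntrk3, summed to 1518 CPM in AAV-CTRL and 2352 CPM in AAV-VEGF-C, and 8 microglial markers, 7 of them counted, to 113 and 180 CPM. The 6 general neuronal markers summed to 19122 and 13947 CPM, and the part of these shifts in the Ntrk3 difference was not tested.

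The other 3 higher pairs were Ngfr with the striatum label. In non-telencephalic astrocyte-like nuclei it read 3.98 CPM on 19 UMIs in AAV-CTRL and 8.82 CPM on 35 UMIs in AAV-VEGF-C, a log2 ratio of 1.15 (0.30 to 2.04), where 3.60% of genes in the class were past the fold. Most of the added UMIs lay in 1 of its clusters, which went from 4 to 18 UMIs (4.64 and 26.7 CPM). The other cluster had 15 and 17 UMIs (3.88 and 5.17 CPM). In cholinergic-like neurons Ngfr differed by 0.63 (-0.08 to 1.37) and in subcortical GABAergic-like neurons by 0.71 (-0.11 to 1.57), which was 0.09 with each library clustered on its own, and the share of genes past the fold in those classes was 9.22% and 3.83%. Mature oligodendrocyte-like nuclei went the other way, at -0.29 (-0.92 to 0.33).

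Of the 8 lower pairs, 5 came from classes with at most 142 nuclei in either library. In choroid plexus epithelial-like cells, Ntrk3 read 200 and 89.4 CPM with the cortex label, -1.16 (-1.82 to -0.52), and Sort1 181 and 76.5 CPM with the striatum label, -1.24 (-2.10 to -0.45). The first was -0.56 with each library clustered on its own and -0.43 with called doublets kept. The share of all genes past the fold in those cells was 13.9% and 25.8%. Ntrk3 differed by -0.79 (-1.30 to -0.30) in other cortical excitatory-like neurons with the striatum label, where 32.8% of genes were past the fold. The makeup of that class also differed between the pair: its 7 cortical excitatory markers summed to 2194 and 1537 CPM, 8 oligodendrocyte markers to 1654 and 2602 CPM and 4 inhibitory markers to 439 and 693 CPM, and their part in the ratio was not tested. In microglia-like nuclei with the striatum label it read 120 and 78.7 CPM, -0.61 (-1.11 to -0.12), and 6.18% of genes were, but it was -0.56 with each library clustered on its own and -0.50 after thinning. Sort1 in other inhibitory-like neurons with the cortex label differed by -0.83 (-1.52 to -0.15), where 10.9% of genes were past the fold. The intervals of the remaining 3 reached past 0: -0.67 (-1.56 to 0.18) for Bdnf in endothelial-like cells, -0.71 (-1.47 to 0.03) for Ntf3 in other inhibitory-like neurons and -0.67 (-1.54 to 0.15) for Sort1 in other striatal projection-like neurons, all with the striatum label. In these 3 classes 5.93%, 8.16% and 10.5% of genes were past the fold. The first was -0.43 with each library clustered on its own, and the second 0.04 after thinning.

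**Figure D5:**
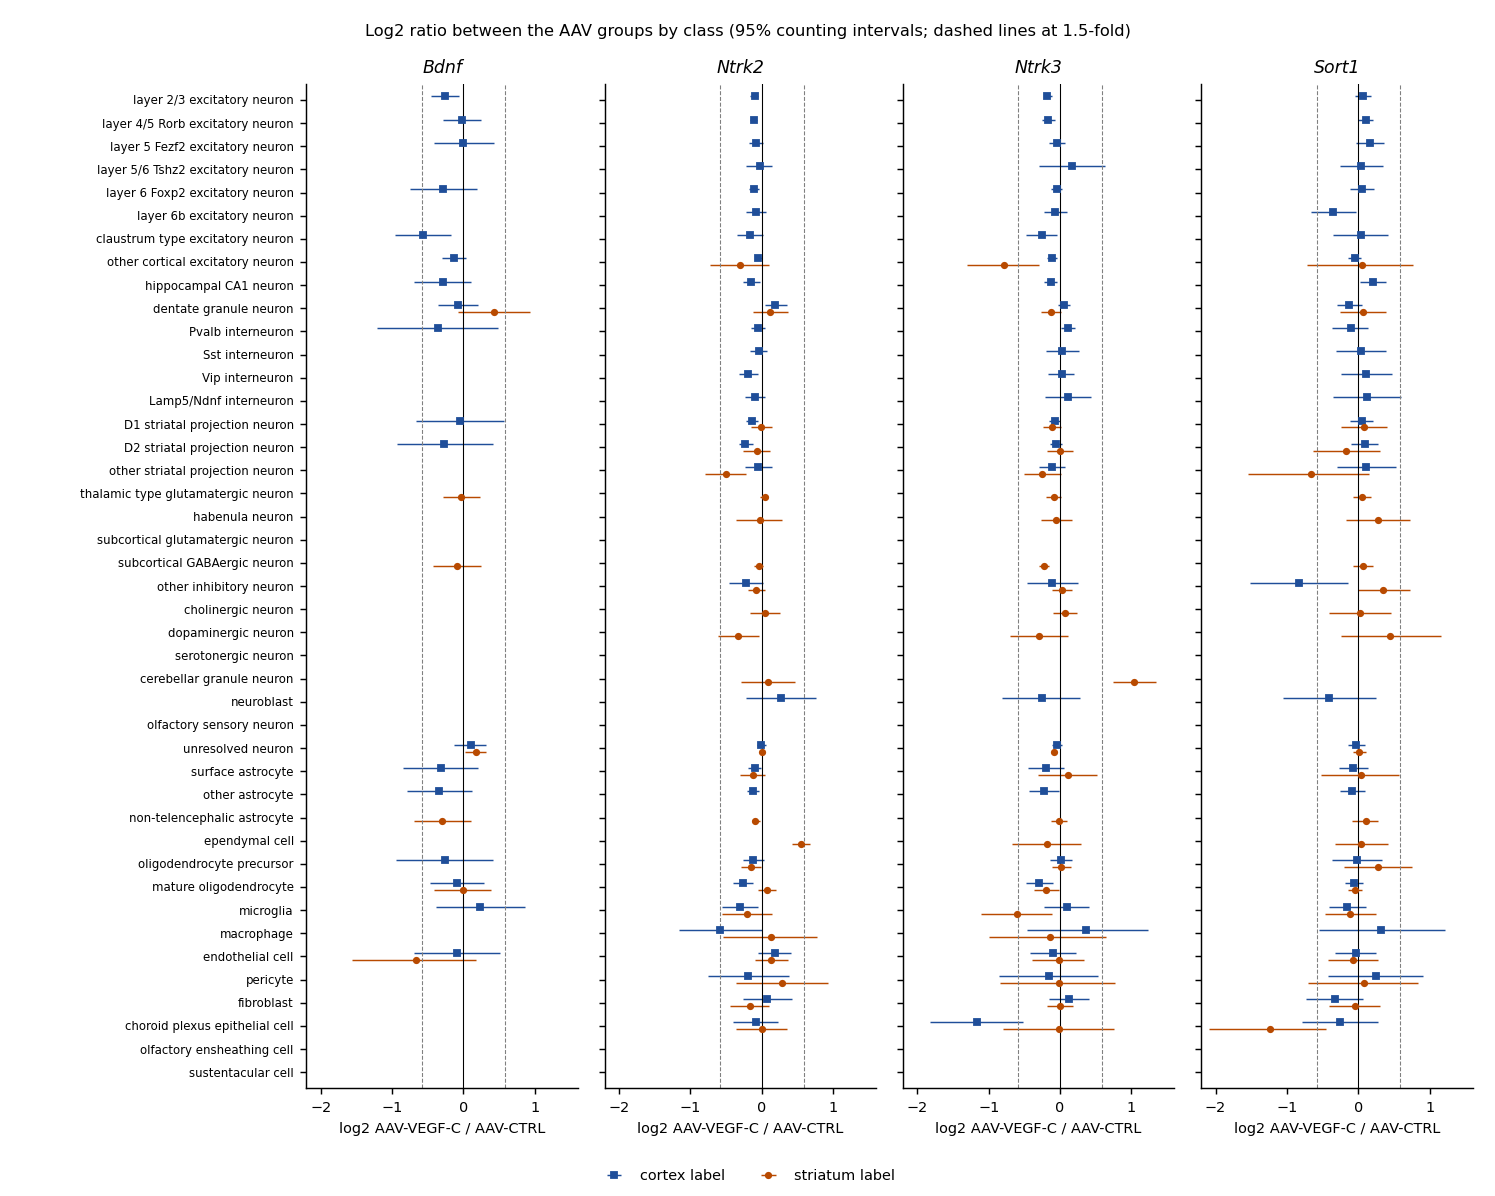
Log2 ratio of AAV-VEGF-C over AAV-CTRL (x axis) for Bdnf, Ntrk2, Ntrk3 and Sort1 by class (y axis), with 95% counting intervals, blue squares for the cortex label, orange circles for the striatum label and dashed lines at 1.5-fold. Most points lie between the dashed lines, with Ntrk3 in cerebellar granule-like neurons (1.04) the farthest to the right.

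Between the region labels, all but 1 of the compared genes were lower in the striatum-labeled library over all kept nuclei. The log2 ratio of striatum over cortex label in AAV-CTRL and AAV-VEGF-C was -0.82 and -0.69 for Bdnf, -0.55 and -0.50 for Ntrk2, -0.45 and -0.53 for Ntrk3 and -0.64 and -0.60 for Sort1. Ngfr was higher, at 1.81 and 1.85. Since the median gene was itself higher under the striatum label, these values relative to it were -1.01 and -0.89 for Bdnf and 1.62 and 1.65 for Ngfr. At this contrast 28.0% and 28.5% of all genes were past 1.5-fold.

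Within a class the label differences took several forms. In oligodendrocyte precursor-like nuclei Ntrk2 (-0.05 and -0.08) and Ntrk3 (0.08 and 0.08) were nearly level between labels, while Sort1 was lower under the striatum label, at -1.29 (-1.74 to -0.86) and -0.99 (-1.40 to -0.60). The 7 cortical excitatory markers were also lower under the striatum label in these nuclei, summing to 1200, 1156, 506 and 466 CPM with 6 or 7 of them counted in each library, and their part in the Sort1 difference was not tested. Past 1.5-fold in that class were 14.5% and 14.6% of genes in AAV-CTRL and AAV-VEGF-C. In mature oligodendrocyte-like nuclei Sort1 differed by -0.24 (-0.35 to -0.13) and -0.22 (-0.32 to -0.12), and Bdnf by -1.15 (-1.55 to -0.76) and -1.07 (-1.45 to -0.69), where 16.9% and 16.4% of genes were past the fold. Bdnf there moved with the cortical excitatory markers given above. In dentate granule-like neurons Ntf3 was level between labels in AAV-CTRL, at 0.05 (-0.42 to 0.52), while it read 0.69 (0.24 to 1.13) in AAV-VEGF-C. Past the fold in that class were 11.7% and 14.4% of genes. In D1-like neurons Sort1 was lower under the striatum label, at -0.48 (-0.73 to -0.23) and -0.44 (-0.70 to -0.19), within 1.5-fold, which 14.6% and 16.5% of genes in the class passed.

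The other genes of the pathway gave a similar picture between the AAV labels. From a list of 70 genes found in the files, ordered by role, 2 were past 1.5-fold over all kept nuclei with the cortex label (2.86%, against 2.46% of all genes) and 1 with the striatum label (1.43%, against 4.47%). The median log2 ratio of the list was -0.03 under both labels, where that of all genes was -0.01 and 0.00. With the cortex label, Frs3, an adaptor of Trk receptors, read 3.02 and 1.75 CPM, -0.78 (-1.13 to -0.44). Mmp9, a protease that can cut proBDNF, differed by 0.59 (-0.06 to 1.26) on 32 and 58 UMIs with the cortex label, and by -1.01 (-1.48 to -0.55) on 127 and 59 UMIs with the striatum label.

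By role, none of the 8 genes for sorting and secretion, 8 transcriptional regulators of Bdnf, 10 p75 effectors or 8 activity and Trk target genes was past 1.5-fold under either label. The activity and Trk target genes, which neuronal activity and BDNF are known to induce, had a median of -0.19 with the cortex label and -0.08 with the striatum label. Arc read 34.1 and 28.9 CPM with the cortex label, -0.24 (-0.33 to -0.15), and Nr4a1 67.7 and 53.5 CPM, -0.34 (-0.40 to -0.27). Vgf, which encodes a secreted neuropeptide precursor, was higher under both labels, at 0.13 (0.09 to 0.17) and 0.19 (0.15 to 0.24). Npas4, an activity-dependent regulator of Bdnf, differed by 0.09 (-0.04 to 0.23) and 0.19 (-0.05 to 0.42). Among the convertases, Pcsk2 differed by 0.03 (0.01 to 0.05) and 0.20 (0.18 to 0.23).

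In glia few genes of the pathway list were past 1.5-fold. With the cortex label, 3 of 58 listed genes were past 1.5-fold in surface astrocyte-like nuclei, where 4.88% of all genes were: Furin, a convertase, at 0.64 (-0.06 to 1.38), Plat, the protease tPA, at -1.04 (-1.93 to -0.19) and Nr4a1 at -0.65 (-1.20 to -0.11). With the striatum label 3 of 38 were, against 10.4% of all genes, among them Sorcs2 at -0.61 (-1.34 to 0.08) and Irs2 at -0.68 (-1.59 to 0.16). In other astrocyte-like nuclei with the cortex label it was 1 of 59, Nr4a1 at -0.67 (-1.27 to -0.07), against 3.74%, and in non-telencephalic astrocyte-like nuclei with the striatum label 1 of 65, Sh2b2 at -0.66 (-1.54 to 0.18), against 3.60%. In mature oligodendrocyte-like nuclei it was 2 of 62 with the cortex label, against 3.64%, and 0 of 66 with the striatum label, against 3.27%. Those 2 were the neuronal activity genes Arc, at -0.70 (-1.09 to -0.31), and Nptx2, at -1.25 (-1.87 to -0.65).

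Across 42 classes, the genes whose levels followed each member most closely were sought among 13535 genes, as a description over classes that share libraries, depth and base composition. For Bdnf the highest Pearson r on log2(CPM + 1) were Grm2 (0.64), Rtn4r (0.63), Kcnj9 (0.63), Nrn1 (0.62) and C1ql3 (0.61). For Ntrk2 they were Gm47423 (0.89), Gm48747 (0.80), Thrb (0.76), Trim9 (0.76) and 4930415C11Rik (0.74). Of these, Gm47423 (chr13:58824218-58826994) and 4930415C11Rik (chr13:59054896-59084093) lie inside Ntrk2 on the opposite strand, and reads of both genes may not be told apart since the use of strand in counting is not given in the sources used here. For Ntrk3 they included Hectd2 (0.77), Speg (0.76), Gm45159 (0.74) and Gm10558 (0.74).

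For Sort1 the closest genes were Mast3 (0.74), Chn1 (0.66), Glt8d2 (0.65), Synpo (0.64) and Hebp1 (0.63). For Ntf3 they were Atg2b (0.63), Gm26582 (0.58), Pappa (0.56), Gm17529 (0.53) and Ip6k2 (0.52), on 1320 Ntf3 UMIs in all. Between members, the largest r in size was 0.38, for Ntrk2 and Ntrk3.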

How the data were processed

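Nuclei of 4 libraries were measured by droplet single-nucleus RNA-seq (10x Genomics 3′ v3 chemistry). The deposited files hold raw UMI counts per gene and nucleus, which the authors made with Cell Ranger 5.0.1 per the file headers; the submitters' processing notes name Cell Ranger 5.1.1 and build mm10, and the annotation, strand setting and use of intronic reads are not given in the sources used here. The 78728 deposited nuclei match the number that the paper gives after its own filters on low counts and low-quality clusters. The counts used here thus started from that filtered set. The authors' integration and test over nuclei were not used.

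Counts were analysed with Python 3.11.15, Scanpy 1.11.5 and leidenalg 0.10.2. Doublets were called per library with Scrublet at an expected rate of 8%, which marked 4.49%, 5.95%, 7.95% and 4.31% of nuclei (cortex label, then striatum label, with AAV-CTRL before AAV-VEGF-C in each). These and 16 of 110 clusters with at least 40% called doublets were left out. Clustering used 5000 variable genes, 50 principal components and 15 neighbours without the 7 genes and the pathway list. Clusters were named from marker lists by at least 3 markers at 2-fold and 40% of a list, a rule set after clusters were seen. The members, markers and pathway list were chosen with earlier results of these data known.

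UMIs were summed per library or class and scaled to 1000000. Levels carry exact Poisson intervals, shares Clopper-Pearson intervals and ratios exact conditional binomial intervals, all at 95%. A ratio needed 50 UMIs over the pair and, for a class, 50 nuclei in each library, and 1.5-fold was the threshold. For shares, nuclei were thinned to 1000 UMIs, and 634, 702, 1480 and 425 nuclei with fewer were dropped. Genes named were the 7 members, the 5 genes most like each member with at least 1000 UMIs, listed pathway genes past 1.5-fold over all kept nuclei, and up to 3 such genes per glial class; other pathway values and the clusters and libraries singled out were chosen after their values were seen. The ratio procedure was tested on simulated data. Some genes that this rule names are not reported here. Sequences are not printed.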

Additional observations from a re-analysis of the deposited data

Results flagged for a closer look

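Of the pathway list, 6 genes had log2 ratios of AAV-VEGF-C over AAV-CTRL of opposite sign with the cortex and the striatum label over all kept nuclei; the difference between labels was not tested. Mmp9 was 0.59 with the cortex label and -1.01 with the striatum label, on 32 and 58 UMIs and on 127 and 59 UMIs. Nptx2 was -0.32 and 0.16, and Fos was -0.24 and 0.21. Shc3 was -0.10 and 0.10, Sorcs3 was -0.12 and 0.04, and Cpe was 0.06 and -0.06.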

How the results depend on the processing

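No paired analysis was possible because each group had 1 library, and for the same reason no library could be left out in turn. Over all kept nuclei, 12 ratios were recomputed under 5 alternatives, and none passed 1.5-fold. The largest move was Ngfr with the cortex label, from 0.24 to 0.46 after thinning to 1000 UMIs, and Ntf3 with the striatum label went from -0.15 to -0.31 with every nucleus weighted the same. Signs changed for Ntf3 with the cortex label, 0.03 to -0.16 after thinning, and for Bdnf with the striatum label, -0.01 to 0.01 after thinning and with all deposited barcodes kept. Sort1 with the cortex label moved from -0.00 to -0.04 with every nucleus weighted the same and to -0.05 after thinning. Ntrk2 with the striatum label moved from -0.03 to -0.06 after thinning, and Ntrk3 with the striatum label from -0.14 to -0.10 with every nucleus weighted the same and to -0.09 with class shares held at the mean of the pair, the last chosen after seeing the data. With a minimum of 200 UMIs, the pathway genes past 1.5-fold were 1 instead of 2 with the cortex label and 0 instead of 1 with the striatum label, since fewer genes were tested. Of 12 class ratios past 1.5-fold, 12 stayed past it with median of ratios scaling, 11 with called doublets kept and 10 after thinning, and 4 of the 8 that could be recomputed with each library clustered on its own. Ntrk3 in choroid plexus epithelial-like cells with the cortex label was -0.43 with called doublets kept, and Ngfr in subcortical GABAergic-like neurons 0.09 with separate clustering of each library. The cause was not tested. Ntf3 in other inhibitory-like neurons with the striatum label reversed to 0.04 after thinning, and the ratio of Ntrk3 between region labels in surface astrocyte-like nuclei of AAV-VEGF-C reversed from 0.70 to -0.10 with separate clustering of each library. The cause was not tested. Bdnf in subcortical glutamatergic-like neurons was 54.2 CPM instead of 105 CPM with each library clustered on its own. Ntf5, with 48 UMIs in all, was too sparse for any ratio.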
